A study of Mus musculus with 20 samples.

Results

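Tubulins and the proteins that bind microtubules form the cytoskeletal core of the growing neuron, and 10 of their genes were followed here in whole brains of Hdac4KO and WT mouse pups. They are the α-tubulin gene Tuba1a, the β-tubulin genes Tubb3, Tubb2a and Tubb2b, the microtubule-associated protein genes Mapt (tau), Map2 and Map1b, the doublecortin gene Dcx, and the stathmin genes Stmn1 and Stmn2. Every probe set whose annotated symbol is one of these genes was taken, which gave 24 probe sets with 1 symbol for the 10 genes, of 45037 probe sets tested and 18193 genes with a probe set of 1 symbol. Another 2 probe sets carry a member's symbol together with that of a pseudogene or gene model (Gm6682 with Tuba1a, and Tubb2a-ps2 with Tubb2b) and are given apart. Probe sets are numbered within a gene from the brightest, by the mean over all arrays.

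WT pups carried the normal gene Hdac4, which encodes a class IIa histone deacetylase. Hdac4KO pups were homozygous for a knock-out of the gene, from intercrosses of a colony on the B6CBAF1/OlaHsd background. All were untreated and at postnatal day 3, and each genotype had 10 brains, 5 of each sex by the labels, each measured on 1 array from 200 ng of total RNA. The sources used here do not say which part of Hdac4 the allele lacks, and in RNA of a whole brain fewer cells of a type and less RNA per cell cannot be told apart.

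Microtubules are hollow filaments of α- and β-tubulin dimers that carry transport along axons and dendrites. In newborn neurons tau, MAP2, MAP1B and doublecortin bind the filaments and stabilise or bundle them, whereas stathmins bind free tubulin dimers and favour disassembly. Tuba1a, Tubb2a, Tubb2b and Tubb3 are major tubulin genes of the developing brain, and Dcx marks young, migrating neurons.

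Signals are log2 values, 1 per probe set and array, and a difference of such values is a log2 fold change. The targeted gene, Hdac4, fell at its 3 probe sets in Hdac4KO brains, with fold changes on the log2 scale of −1.39, −1.19 and −0.46 (adjusted p = 6.28e-07, 9.48e-07 and 0.0198, limma with Benjamini-Hochberg adjustment over all probe sets). The array medians lay between 6.26 and 6.32. By Xist, which is transcribed from an inactive X chromosome, 3 arrays went against their sex label (WT replicates 5 and 9 and Hdac4KO replicate 10), so results were also computed without them. Hdac4KO replicate 10 and WT replicate 8 nearly met at the second Hdac4 probe set (7.35 and 7.36), and they were left out in another alternative. The labels do not say whether pups shared a litter.

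The members were detected well above the middle of the signal range. All 10 brightest probe sets of the members lay above the array median on all 20 arrays, as did those of 15 of 15 neuronal marker genes. The same held for 10 of 10 astrocyte markers and for 2 of 6 erythroid markers, and the share over all genes is not given here. The signals ended at 14.72, the highest value of any probe set on any array, and the Tuba1a mean of 14.33 lay close to that end. Whether signals this near the top of the range understate differences was not tested. Of the 24 probe sets, 22 lay above the array median on all arrays, Dcx probe set 3 did so on 16 and Dcx probe set 4 on 0.

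The genes' starts were available for 6 of the 10 members in the RefSeq promoter table (GRCm38.p6), and in 4 of these the 250 bases before the start lie outside the gene's own annotated span. The windows of 3 tubulin genes are shown, because Tuba1a and Tubb2a varied together between brains while Tubb3 is the tubulin read as a mark of neurons. Sequences run 5′ to 3′ on the strand of the gene up to the base before the start, and capitals mark matches, on either strand, to a CCAAT box (CCAAT), a GC box (GGGCGG) or a TATA box (TATAAA). None of these windows was measured here, and a match is not a bound site.
Tuba1a, chr15:98953502-98953751, minus strand: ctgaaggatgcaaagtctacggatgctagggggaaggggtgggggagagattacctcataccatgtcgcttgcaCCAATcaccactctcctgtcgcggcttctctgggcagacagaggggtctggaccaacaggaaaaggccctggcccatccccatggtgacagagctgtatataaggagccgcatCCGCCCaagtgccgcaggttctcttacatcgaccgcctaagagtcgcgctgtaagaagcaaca
Tubb2a, chr13:34078009-34078258, minus strand: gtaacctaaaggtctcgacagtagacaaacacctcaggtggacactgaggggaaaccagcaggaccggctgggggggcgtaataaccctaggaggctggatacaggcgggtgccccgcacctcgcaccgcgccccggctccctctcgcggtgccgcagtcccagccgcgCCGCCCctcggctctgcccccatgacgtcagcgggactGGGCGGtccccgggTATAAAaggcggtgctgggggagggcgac
Tubb3, chr8:123411303-123411552, plus strand: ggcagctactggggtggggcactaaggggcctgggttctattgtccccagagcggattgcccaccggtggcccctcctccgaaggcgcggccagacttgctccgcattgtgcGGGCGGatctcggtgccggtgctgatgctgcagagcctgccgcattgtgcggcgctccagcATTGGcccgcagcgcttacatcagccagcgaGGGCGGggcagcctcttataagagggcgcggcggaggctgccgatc
The Tuba1a window held 1 CCAAT box and 1 GC box, that of Tubb2a 1 TATA box and 2 GC boxes, and that of Tubb3 1 CCAAT box and 2 GC boxes. Over 27025 promoters of the table, 13% of such windows held the TATA box, 34.5% the CCAAT box and 32.9% the GC box. The MEF2 site, the element bound by the factors that HDAC4 is best known to repress, was also searched and was found in 1.73% of all windows and in none of these 3. A site so rare is unlikely to occur in any 3 windows, so its absence says nothing about these genes.

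At an adjusted p under 0.05, 0 of the 24 probe sets were called higher and 0 lower in Hdac4KO brains (limma, Benjamini-Hochberg over 45037 probe sets), where 1.05% of all probe sets were called higher and 1.01% lower. At an unadjusted p under 0.05, 0 of the 24 were higher and 3 were lower, against 9.93% of all probe sets higher and 8.1% lower. The fold change was above 0 at 8 probe sets and below 0 at 16, with a median of −0.0074 against 0.0035 over all probe sets. At all 24 the values of both genotypes overlapped. On the scale of the signals, the 95% confidence interval lay within a change of 10% either way for 8 of the 10 brightest probe sets and within 20% for 20 of the 24. The widest bound among the 10 brightest was a decrease of 17.8%, at Map1b. These bounds hold for differences in RNA only if signals near the top of the range are not compressed, which was not tested.

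**Figure D1:**
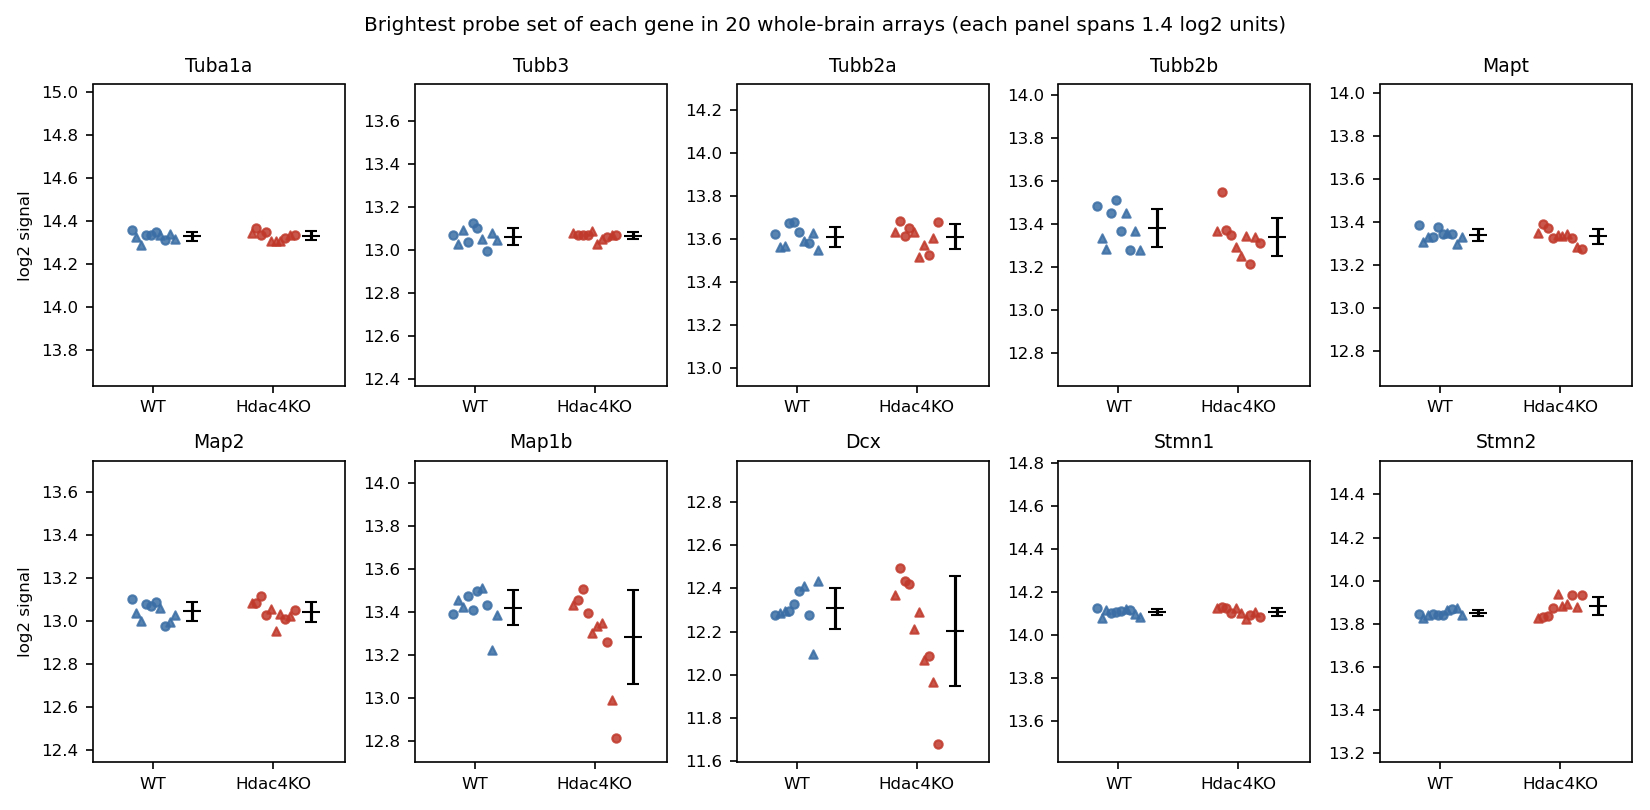
Log2 signal of the brightest probe set of each gene on the 20 arrays (circles: male by label, triangles: female by label; WT blue, Hdac4KO red, in order of replicate number), with mean and SD beside each group. Every panel spans 1.4 log2 units, and the groups overlap in all of them; the Hdac4KO arrays spread widest in Map1b (12.81 to 13.51) and Dcx (11.68 to 12.50).

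Tuba1a, which encodes the main α-tubulin of young neurons, varied little. Its probe set (1418884_x_at) ranged from 14.29 through a median of 14.33 to 14.36 in WT brains and from 14.30 through 14.33 to 14.37 in Hdac4KO brains. The groups lay on top of each other. The means were 14.33 ± 0.020 (SD, n = 10) and 14.33 ± 0.021 (SD, n = 10), with a log2 fold change of 0.0012 (95% confidence interval −0.042 to 0.044). The α-tubulin genes Tuba1b and Tuba1c had no probe set of 1 symbol, and whether 1418884_x_at also reads their transcripts was not tested. The shared Gm6682 and Tuba1a probe set was dim, with a mean of 4.85 ± 0.25 in WT and one of 4.82 ± 0.21 in Hdac4KO brains (SD, n = 10 each), and lay above the array median on 0 arrays.

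Tubb3, the β-tubulin isotype used as a marker of neurons, gave signals from 12.99 through a median of 13.06 to 13.12 in WT and from 13.03 through 13.07 to 13.09 in Hdac4KO brains (1415978_at). Every Hdac4KO array fell inside the WT range, and the log2 fold change was 0.0036 (95% confidence interval −0.043 to 0.050). The SD was 0.039 in WT and 0.016 in Hdac4KO brains, and this difference in spread was not tested.

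Tubb2a and Tubb2b are neighbouring genes for closely related β-tubulins, with 0 protein-coding genes between them, so their probe sets may read transcripts of both. Tubb2a probe set 1 (1427347_s_at) ranged from 13.55 through 13.61 to 13.68 in WT and from 13.52 through 13.62 to 13.69 in Hdac4KO brains. These ranges nearly coincide, and the log2 fold change was 0.0020 (95% confidence interval −0.057 to 0.061). Tubb2a probe set 2 (1427838_at) was far dimmer, from 6.78 through 6.95 to 7.16 in WT and from 6.68 through 6.75 to 7.04 in Hdac4KO brains. Here 8 of 10 Hdac4KO arrays lay below the WT mean, although the ranges still overlapped, and the log2 fold change was −0.17 (SE 0.059, unadjusted p = 0.00794, adjusted p = 0.120, limma).

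Tubb2b, mutated in human cortical malformations as is Tuba1a, ranged from 13.28 through 13.37 to 13.51 in WT and from 13.21 through 13.34 to 13.55 in Hdac4KO brains (1452679_at). Of the Hdac4KO arrays 9 lay below the WT mean, and the tenth, replicate 2, was the highest of all 20. The log2 fold change was −0.041 (95% confidence interval −0.13 to 0.044, adjusted p = 0.656, limma), and −0.064 without that array. The probe set shared with the pseudogene Tubb2a-ps2 had a log2 fold change of −0.0058 (95% confidence interval −0.097 to 0.085).

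Mapt encodes tau, the axonal microtubule-associated protein, and was read by 4 bright probe sets. Probe set 1 (1424719_a_at) ranged from 13.30 through 13.34 to 13.39 in WT and from 13.27 through 13.34 to 13.39 in Hdac4KO brains, so the groups shared one range. Its log2 fold change was −0.0064 (95% confidence interval −0.054 to 0.041), and those of probe sets 2, 3 and 4 were 0.0080, −0.0068 and −0.026 (adjusted p between 0.661 and 0.926 for the 4, limma). All 4 intervals lay within −0.080 and 0.058.

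Map2, whose product binds microtubules of dendrites and cell bodies, is the only member on the chromosome of Hdac4, with 205 protein-coding genes between them. Probe set 1 (1434194_at) ranged from 12.98 through 13.05 to 13.10 in WT and from 12.95 through 13.04 to 13.12 in Hdac4KO brains. No shift is visible in these values, and the log2 fold change was −0.0013 (95% confidence interval −0.056 to 0.053). The dimmer probe sets scattered more. Probe set 2 (1440699_at) ranged from 9.23 through 9.63 to 10.03 in WT and from 9.28 through 9.92 to 10.41 in Hdac4KO brains, and 9 of 10 Hdac4KO arrays lay above the WT mean (log2 fold change 0.26, SE 0.13, adjusted p = 0.290, limma). Probe set 3 (1421328_at) ranged from 8.23 through 8.40 to 8.74 in WT and from 8.13 through 8.27 to 8.54 in Hdac4KO brains. In this probe set 9 of 10 Hdac4KO arrays lay below the WT mean (log2 fold change −0.15, SE 0.061, unadjusted p = 0.0229, adjusted p = 0.192, limma). The fold change of probe set 4 was −0.011 (95% confidence interval −0.17 to 0.15).

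Map1b, the first of the large microtubule-associated proteins to appear in growing axons, was less even. Probe set 1 (1450397_at) ranged from 13.22 through 13.43 to 13.51 in WT and from 12.81 through 13.34 to 13.51 in Hdac4KO brains. The 2 lowest values were those of Hdac4KO replicates 10 and 9 (12.81 and 12.99), and the lowest WT value was that of replicate 9 (13.22). The means were 13.42 ± 0.081 (SD, n = 10) and 13.28 ± 0.22 (SD, n = 10), so that the fold change was −0.14 in log2 units (SE 0.070, 95% confidence interval −0.28 to 0.0075, adjusted p = 0.306, limma). Without WT replicate 8 and Hdac4KO replicate 10 it was −0.084. Probe set 2 (1421851_at) had the largest spread of the 24, from 10.38 through 10.54 to 11.63 in WT and from 9.88 through 10.75 to 11.67 in Hdac4KO brains, with a log2 fold change of −0.013 (95% confidence interval −0.49 to 0.46). That of probe set 3 was 0.12 (95% confidence interval −0.15 to 0.38). Little can be said of a genotype difference from the 2 dimmer probe sets, whose intervals reach increases of 38.0% and 30.4%.

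Dcx, which encodes doublecortin, the microtubule-binding protein of migrating neurons, resembled Map1b at its brightest probe set. Probe set 1 (1418141_at) ranged from 12.10 through 12.29 to 12.43 in WT and from 11.68 through 12.25 to 12.50 in Hdac4KO brains. Hdac4KO replicates 10 and 9 were again lowest (11.68 and 11.96), as was replicate 9 among the WT arrays (12.10). The fold change was −0.11 in log2 units (SE 0.081, adjusted p = 0.530, limma), and −0.048 without Hdac4KO replicate 10. Probe set 2 (1418139_at), of like signal, ranged from 12.06 through 12.17 to 12.27 in WT and from 12.05 through 12.23 to 12.30 in Hdac4KO brains. There the Hdac4KO arrays were nearly as tight as the WT arrays, and the log2 fold change was 0.042 (adjusted p = 0.589, limma). Probe set 3 (1418140_at), near the array median, ranged from 6.31 through 6.51 to 6.67 in WT and from 5.96 through 6.30 to 6.54 in Hdac4KO brains. This was the smallest p of all 24 probe sets (log2 fold change −0.19, SE 0.065, unadjusted p = 0.00738, adjusted p = 0.116, limma), and 8 of 10 Hdac4KO arrays lay below the WT mean. Probe set 4 had a fold change of −0.0081 (95% confidence interval −0.19 to 0.17).

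**Figure D2:**
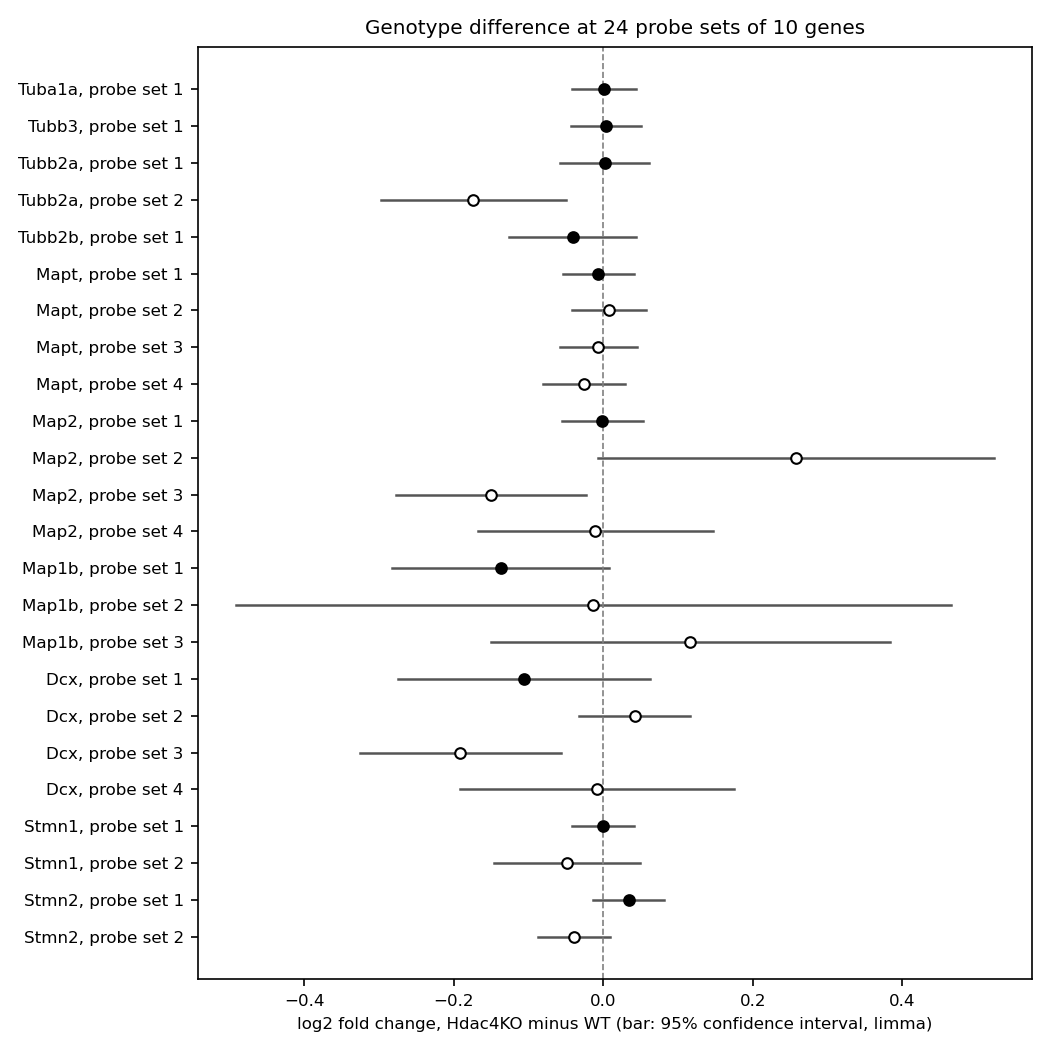
Log2 fold change (Hdac4KO minus WT) of each of the 24 probe sets with its 95% confidence interval from limma; filled points are the brightest probe set of each gene. The intervals of Tubb2a probe set 2, Map2 probe set 3 and Dcx probe set 3 leave out 0, and none of these passed the adjustment over all probe sets (adjusted p = 0.120, 0.192 and 0.116).

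Stmn1, the stathmin of dividing and young cells, ranged from 14.08 through 14.11 to 14.13 in WT and from 14.07 through 14.10 to 14.13 in Hdac4KO brains at probe set 1 (1415849_s_at). The log2 fold change was −0.00031 (95% confidence interval −0.042 to 0.042), the smallest of the 24. At probe set 2 (1448113_at) it was −0.048 (95% confidence interval −0.15 to 0.050).

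Stmn2 encodes the stathmin of neurons known as SCG10, which is carried to growth cones. Its probe set 1 (1423280_at) ranged from 13.83 through 13.84 to 13.87 in WT and from 13.83 through 13.88 to 13.94 in Hdac4KO brains. The WT arrays lay in a narrow band (SD 0.015), and 7 of 10 Hdac4KO arrays lay above its mean with a wider spread (SD 0.043). Its log2 fold change was 0.034 (SE 0.023, adjusted p = 0.462, limma). Probe set 2 (1423281_at) ranged from 13.61 through 13.66 to 13.68 in WT and from 13.54 through 13.63 to 13.65 in Hdac4KO brains. Each of the 10 Hdac4KO values was below the WT mean, and the fold change was −0.039 in log2 units (SE 0.023, adjusted p = 0.400, limma).

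Since the members with several probe sets could be read more than once on the same array, the signal of the brightest minus that of each other probe set was compared between genotypes, in 14 pairs. This difference was set to test whether the brightest and another probe set of a gene moved by unequal amounts. A call was reached for Stmn2 alone. The difference of its probe sets ranged from 0.17 to 0.25 in WT and from 0.20 to 0.40 in Hdac4KO brains, with means of 0.197 ± 0.026 (SD, n = 10) and 0.270 ± 0.063 (SD, n = 10). It was larger by 0.073 in Hdac4KO brains, where 9 of 10 arrays lay above the WT mean (two-sided permutation test with 100000 resamples, p = 0.0012, adjusted p = 0.0168 over the 14 pairs). By labelled sex the shift was 0.058 in females and 0.089 in males. The call was lost without WT replicate 1 (shift 0.071, adjusted p = 0.0508) and without the 3 arrays that went against their sex label (shift 0.055, adjusted p = 0.118, permutation test). Over 22 alternatives the shift lay between 0.055 and 0.081. For Tubb2a the shift was 0.18 (p = 0.00776, adjusted p = 0.0543, permutation test), with 8 of 10 Hdac4KO arrays above the WT mean. The other 12 pairs had adjusted p between 0.135 and 0.984. Dimmer probe sets of a gene were not compared with each other. Among these were Map2 probe sets 2 and 3, with log2 fold changes of 0.26 and −0.15. Where the probes lie in the transcripts is not used here, so which part of Stmn2 each probe set reads is not stated.

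**Figure D3:**
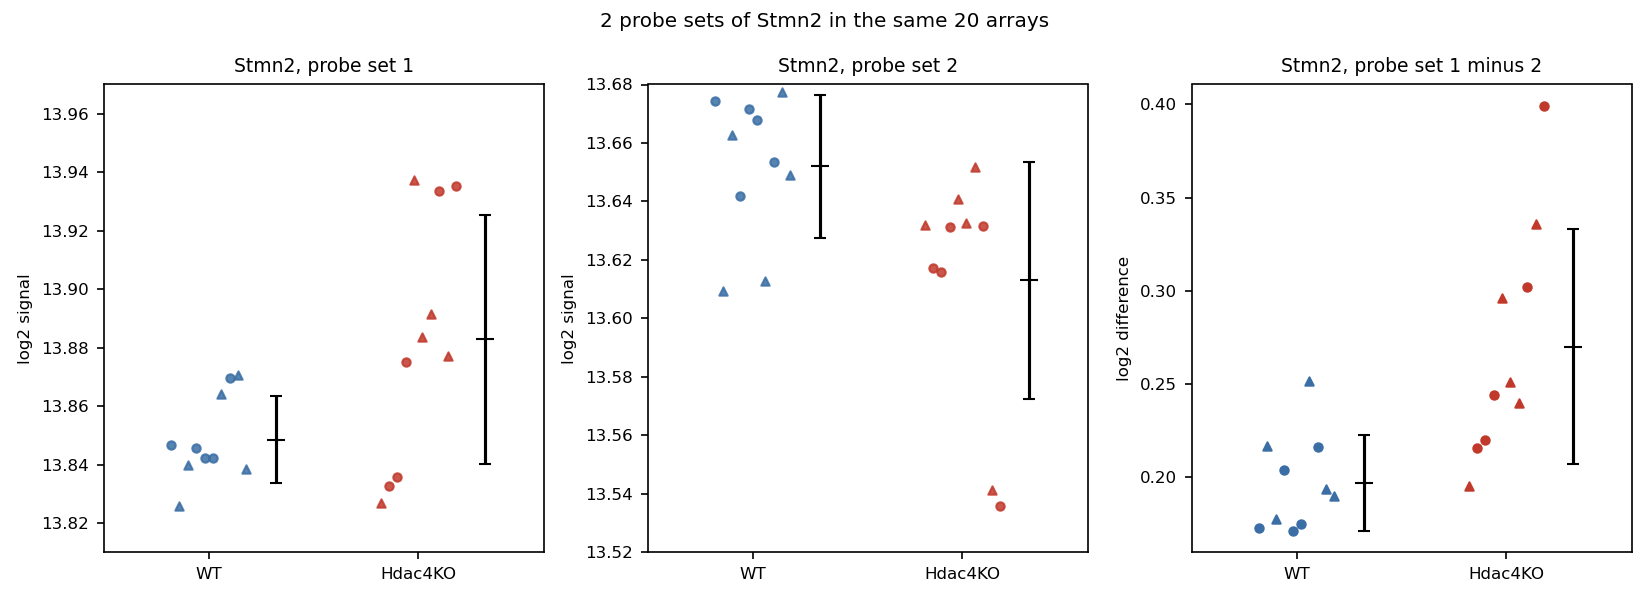
Log2 signal of Stmn2 probe sets 1 and 2 and, at the right, probe set 1 minus probe set 2, on the same 20 arrays (circles: male by label, triangles: female by label; WT blue, Hdac4KO red, in order of replicate number), with mean and SD beside each group. The first 2 panels span the same 0.16 log2 units; the difference was 0.197 in WT and 0.270 in Hdac4KO brains.

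Control probe sets for actin and Gapdh read each transcript near both ends, and their 3′ signal less their 5′ signal grows as RNA breaks down. Averaged over both genes it was 0.191 ± 0.031 for the WT and 0.216 ± 0.030 for the Hdac4KO arrays (SD, n = 10 each; p = 0.0816 by a two-sided permutation test). For actin alone it was 0.480 and 0.520 (p = 0.0475), and for Gapdh alone −0.0989 and −0.0890 (p = 0.473, two-sided permutation tests). The averaged value was highest of all in Hdac4KO replicate 10 (0.262), the array lowest at probe set 1 of Map1b and of Dcx. Hdac4KO replicate 3 came next (0.254), and it was the highest Hdac4KO array at Map1b probe set 1 (13.51). With genotype means removed, r of the averaged value was −0.312 with Map1b probe set 1 and −0.302 with Dcx probe set 1. Without the 2 arrays farthest out these were −0.140 and −0.127. With the averaged value as a covariate the shift between the Stmn2 probe sets was 0.054 against 0.073 without it. Across the 20 arrays, with genotype means removed, it was related to 1 of the 26 probe sets of the members after adjustment over 26, namely the one shared by Tubb2a-ps2 and Tubb2b (r = −0.819, p = 4e-05, adjusted p = 0.00104; rho = −0.817, p = 8e-05, adjusted p = 0.00208; permutation tests). The relation held within WT (r = −0.864) and Hdac4KO arrays (r = −0.788) and without the 2 arrays farthest out (r = −0.755). Tubb2b probe set 1 showed none (r = −0.0907, adjusted p = 0.872; rho = −0.0526, adjusted p = 0.901; permutation test).

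The genotype difference was also tested by labelled sex, while the signals of males and females were not themselves compared. Within females and within males 0 of the 24 probe sets were called (limma, 4 groups of 5), and the genotype difference differed between the sexes at 0 of them, against 0% of all probe sets. The share of all probe sets called within a sex is not given here, so those counts do not set the members apart. At an unadjusted p under 0.05 the interaction was also met by 0 of the 24, and by 2409 of the 45037 probe sets. Without the 3 arrays that went against their label the interaction was still called at 0 of the 24.

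Signals of some members varied together from brain to brain. With genotype means removed, signals of the 10 brightest probe sets were correlated over the 20 arrays, and 10 of 45 pairs passed the Benjamini-Hochberg adjustment (Pearson's r, arrays shuffled within each genotype), all with r above 0, of which 9 also passed by Spearman's rho. The share of pairs of other bright genes that would pass was not computed, so this count does not set the members apart. Pearson's r was highest for Map1b and Dcx (r = 0.908, p = 1e-05, the smallest the resampling can give, adjusted p = 0.00045; rho = 0.755, p = 0.00049, adjusted p = 0.0143; permutation test). It was 0.740 within WT, 0.931 within Hdac4KO arrays and 0.797 without Hdac4KO replicates 9 and 10. Mapt went with both, at r = 0.745 with Map1b (rho = 0.600, adjusted p = 0.00619 and 0.0291) and r = 0.706 with Dcx (rho = 0.532, adjusted p = 0.00882 and 0.0665). These rest in part on Hdac4KO replicates 9 and 10, without which r was 0.540 and 0.504, and within WT r was 0.325 and 0.376. Dcx probe set 2, of like signal, read 12.29 and 12.14 in Hdac4KO replicates 9 and 10, beside a WT mean of 12.18. Its relations to the other members were not computed. Mapt and Stmn1 had r = 0.615 (rho = 0.701, adjusted p = 0.0262 and 0.0143).

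By Spearman's rho 12 pairs passed, and 3 of them did not pass by r. Among these, Dcx and Stmn2 ran in opposite directions (r = −0.672, adjusted p = 0.0511; rho = −0.659, adjusted p = 0.0291, permutation test), with r of −0.395 within WT, −0.707 within Hdac4KO arrays and −0.509 without the 2 farthest arrays. The others were Tubb2b with Mapt (r = 0.549, adjusted p = 0.0579; rho = 0.600, adjusted p = 0.0291) and Mapt with Map2 (r = 0.505, adjusted p = 0.0937; rho = 0.615, adjusted p = 0.0291, permutation test).

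Another group was made up of 3 tubulins and Map2, and all 6 of its pairs passed. Tuba1a and Tubb2b had r = 0.745 (rho = 0.705, adjusted p = 0.00427 and 0.0143), with 0.717 within WT, 0.772 within Hdac4KO arrays and 0.631 without the 2 farthest arrays. Tubb2a and Tubb2b had r = 0.730 (rho = 0.674, adjusted p = 0.00495 and 0.0143). Tuba1a and Tubb2a had r = 0.658 (rho = 0.670, adjusted p = 0.0149 and 0.0146), and Map2 had r between 0.624 and 0.690 with the 3 tubulins (largest adjusted p 0.0226 for r and 0.0436 for rho). Without the 2 farthest arrays r in these 6 pairs lay between 0.475 and 0.718. Tubb3 passed with no member, and its highest r was 0.480, with Tubb2a (rho = 0.514, adjusted p = 0.0708 for r, permutation test). How the arrays were normalized is not stated, and what lies behind the relations was not tested.

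**Figure D4:**
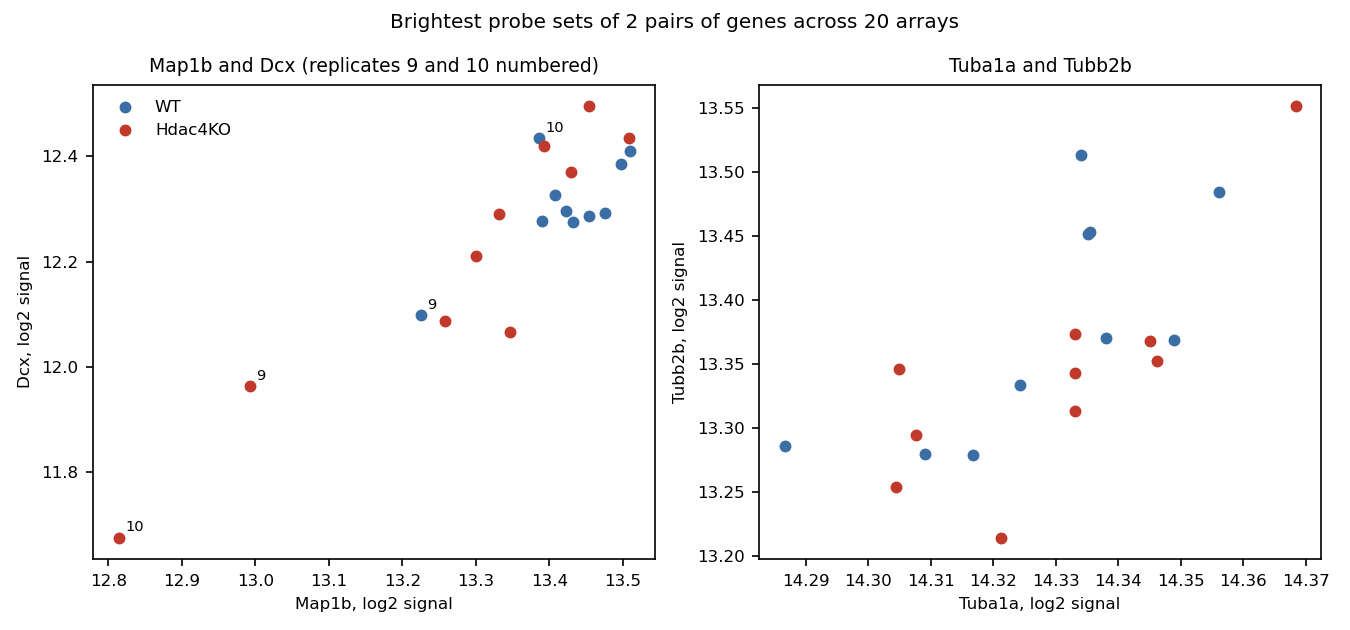
Brightest probe sets of Map1b against Dcx (left) and Tuba1a against Tubb2b (right), in log2 signal, 1 point for each of 20 arrays (WT blue, Hdac4KO red); replicates 9 and 10 of both genotypes are numbered at the left. These 2 probe sets of Map1b and Dcx fall together (r = 0.908 with genotype means removed) and reach lowest in Hdac4KO replicates 9 and 10. Dcx probe set 2, not shown, read 12.29 and 12.14 in those arrays, beside a WT mean of 12.18.

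For the 2 members that held the smallest p, the genes whose brightness over the 20 arrays was most like their brightest probe set were sought among 19735 and 19736 other probe sets above the median. For Dcx these were Nipbl, a loader of cohesin (r = 0.966, rho = 0.916), Krit1 (r = 0.964, rho = 0.890) and Zfp292, a zinc finger gene (r = 0.949, rho = 0.844). For Tubb2a they were Slc25a4, the mitochondrial ADP/ATP carrier (r = 0.911, rho = 0.902), Serinc3 (r = 0.908, rho = 0.899) and Anks1b (r = 0.906, rho = 0.845). These are the highest of many and describe the 20 arrays only. None of the 6 genes was itself called between genotypes (adjusted p between 0.226 and 0.879, limma).

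The wider microtubule machinery was read at the brightest probe set of each gene, for 125 of 135 listed genes. Of these, 6 were called higher and 0 lower in Hdac4KO brains, where 1.45% of all genes were called higher and 0.517% lower. All 6 rose by small amounts, between 0.11 and 0.17 on the log2 scale. Among 25 other structural microtubule-associated proteins these were Map1s, a relative of Map1b (log2 fold change 0.11, SE 0.030, adjusted p = 0.0495), and Nav2, a neuron navigator (0.13, SE 0.031, adjusted p = 0.0362). Among 18 proteins of the filament ends it was Camsap2, which binds minus ends (0.13, SE 0.035, adjusted p = 0.0495). Among 21 tubulin-modifying enzymes it was Ttl, the ligase that restores the terminal tyrosine of α-tubulin (0.17, SE 0.039, adjusted p = 0.0301). Among 15 kinases of tau, MAPs and stathmins these were Cdk5r1, the p35 activator of CDK5 (0.13, SE 0.029, adjusted p = 0.0245), and Mapk8, which encodes JNK1 (0.12, SE 0.031, adjusted p = 0.0486).

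In 4 of the 6, Nav2, Ttl, Cdk5r1 and Mapk8, each of the 10 Hdac4KO values exceeded the WT mean. Few of these calls were firm. With the 3′ minus 5′ signal as a covariate, and without either the 2 or the 3 arrays named above, 0 of the 6 passed. Calls over all probe sets in these settings are not given here, so the loss cannot be read as particular to these genes. Cdk5r1 passed in 28 of 33 alternatives, Ttl in 23, Nav2 in 22, Mapk8 in 12, Map1s in 11 and Camsap2 in 10. Further probe sets of the 6 genes went the same way in some cases and not in others. Nav2 had 2 more called higher (0.26 and 0.30, adjusted p = 0.0290 and 0.0299) and Cdk5r1 1 more (0.15, adjusted p = 0.0408), and the second of Mapk8 had 0.096 (adjusted p = 0.157, limma). Other probe sets of Nav2 went down, among them 1444080_at (−0.38, adjusted p = 0.0623) and 1457395_at (−0.15, adjusted p = 0.0577, limma). Ttl probe set 1427112_at, the next in brightness, had 0.019 (adjusted p = 0.870), and a second of Camsap2 had −0.018 (adjusted p = 0.870, limma).

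In the remaining lists 0 genes were called either way. These were 8 other α- and β-tubulins (median log2 fold change 0.021), 4 γ-, δ- and ε-tubulins (0.0066), 7 other stathmins and CRMPs (0.020), 21 folding cofactors (0.0043) and 6 severing enzymes (−0.035), beside a median of 0.012 over all genes. The smallest p of each belonged to Tubb4a (0.10, adjusted p = 0.241), Tubg2 (0.12, adjusted p = 0.147), Dpysl4 (0.082, adjusted p = 0.223), the prefoldin subunit gene Pfdn1 (−0.11, adjusted p = 0.0719) and Fign (−0.095, adjusted p = 0.368, limma). Medians of the lists with calls were 0.035 for the structural proteins, 0.034 for those of filament ends, 0.023 for the modifying enzymes and 0.074 for the kinases. Dimmer probe sets of the wider genes were called higher 4 times, 2 in Nav2, 1 in Cdk5r1 and 1 in Mapre1, which binds plus ends (0.15, adjusted p = 0.0301, with 0.060 and adjusted p = 0.212 at its brightest, limma). They were called lower 3 times. Clip1 had 2 called lower (−0.41 and −0.48, adjusted p = 0.0196 and 0.0275) and Dpysl3, a CRMP, 1 (−0.39, adjusted p = 0.0103), while the brightest probe sets of these genes had 0.10 (adjusted p = 0.0681) and 0.020 (adjusted p = 0.673, limma).

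**Figure D5:**
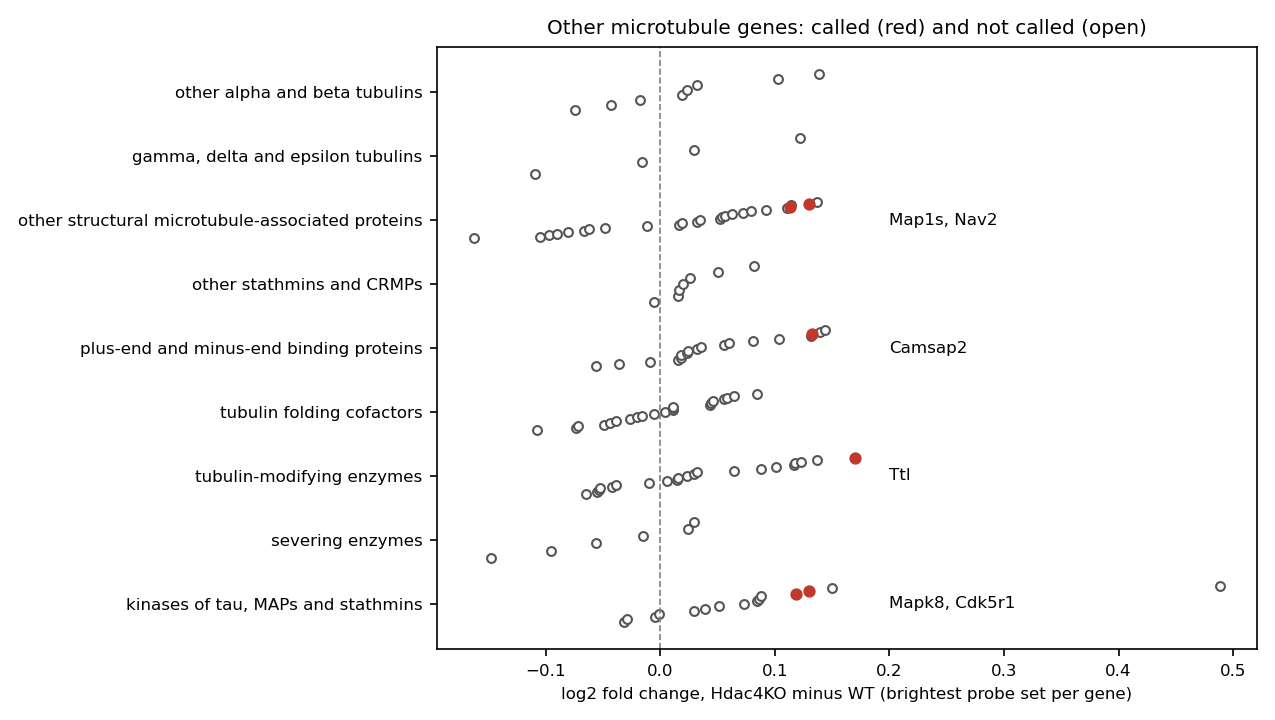
Log2 fold change (Hdac4KO minus WT) at the brightest probe set of 125 other microtubule genes, 1 point per gene in the row of its list; red points passed an adjusted p under 0.05 in limma and are named at 0.2, open points did not. The 6 called genes lie between 0.11 and 0.17, and the farthest open point is Camk4 (0.49, adjusted p = 0.0621).

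Markers of cell types were also read at the brightest probe set of each gene, beside a median of 0.012 over all genes. Of 15 neuronal markers 1 was lower, the neurofilament gene Nefl (log2 fold change −0.28, SE 0.071, adjusted p = 0.0427), and 0 were higher, with Syt1, a calcium sensor of synaptic vesicles, at 0.14 (adjusted p = 0.0504, limma). At dimmer probe sets Syt1 (−0.38, adjusted p = 0.0310) and the glutamate transporter gene Slc17a6 (−0.52, adjusted p = 0.0182, limma) each had 1 called lower. The median of the neuronal list was 0.014, and its mean signal ran from 11.57 to 11.69 on WT and from 11.60 to 11.69 on Hdac4KO arrays. Of 11 markers of immature neurons 0 were called, with Sox11 nearest (−0.24, adjusted p = 0.115), their median was −0.078, and their mean ran from 9.78 to 9.96 in WT and from 9.63 to 9.91 in Hdac4KO arrays.

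For neural progenitors (9 measured, median −0.069) and proliferating cells (9 measured, median −0.10), 0 genes were called at the brightest probe set and 3 of each list were lower at an unadjusted p under 0.05. At that level 2322 of all 18193 genes were higher and 1126 lower at their brightest probe set (limma). Dimmer probe sets of Nes, the nestin gene of progenitors (−0.29, adjusted p = 0.0427), and of Cenpf, a gene of dividing cells (−0.31, adjusted p = 0.0257, limma), were called lower. Of 10 microglial markers Tmem119 was higher (0.26, adjusted p = 0.0179, limma), 5 were higher at an unadjusted p under 0.05, the median was 0.15, and the list mean ran from 7.83 to 8.07 in WT and from 7.81 to 8.32 in Hdac4KO arrays. Tmem119 was dim, with means of 6.22 in WT and 6.48 in Hdac4KO brains, near the array medians. Of 9 markers of choroid plexus and ependyma Ttr was lower (−0.14, adjusted p = 0.0420, limma), 3 were lower at an unadjusted p under 0.05, the median was −0.11, and the list mean ran from 7.62 to 7.97 in WT and from 7.59 to 7.82 in Hdac4KO arrays. Markers of meninges and fibroblasts had 0 calls of 9, with 3 lower at an unadjusted p under 0.05 and a median of −0.10. No marker was called for astrocytes (10 measured, median −0.011), the oligodendrocyte lineage (10, −0.030), endothelial and mural cells (10, −0.024) or erythroid cells (6, −0.034). The part of these cell types in the members' signals was not tested.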

How the data were processed

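Whole-brain RNA of 10 WT and 10 Hdac4KO pups was measured on Affymetrix mouse genome arrays. Starting from 200 ng of total RNA per brain, the authors used a 3′ labelling kit, hybridized 1 array per brain and left out arrays of poor quality. The deposited log2 signals had array medians between 6.26 and 6.32. How the probes were summarised and normalized is not stated in the sources used here. Depth has no meaning for arrays, whose number limits the precision.

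Of 45101 probe sets, 64 controls were left out. The platform table gives 1 symbol for 34945 of the other 45037, several for 932 and none for 9160. The genotype contrast came from limma 3.58.1 (lmFit, then eBayes, in R 4.3.3), without covariates, and a probe set was called at a Benjamini-Hochberg adjusted p under 0.05 over all 45037. Pairs of probe sets and correlations were tested by permutation with 100000 resamples (Python 3.11.15, NumPy 2.4.6), adjusted within each family. The alternatives were the methods' t-test, Welch's version of it, sex or the 3′ minus 5′ signal as a covariate, the replicate block, a filter on dim probe sets (22594 kept, brighter than the median of 10 or more arrays), median centring, quantile normalization, array weights, eBayes with trend and robust, 1 probe set per gene, and arrays left out. The tests were tried on simulated data. Members, gene lists, alternatives and promoter motifs were chosen with earlier results of these data known. Named are the brightest probe set of each member, genes of the wider lists and markers with the smallest p, and the genes most alike to Dcx and Tubb2a. Other probe sets were named after their values were seen. RefSeq annotation (GRCm38.p6) served for gene order and promoter sequence, and the files name no genome build.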

Additional observations from a re-analysis of the deposited data

Results flagged for a closer look

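In 3 of 48 groups of 10 arrays (24 probe sets, 2 genotypes), 1 array stood apart from the other 9 by Dixon's test at the 95% level, and chance alone marks about 1 group in 20. Tubb2b probe set 1 was highest in Hdac4KO replicate 2, at 13.5512 with the nearest array at 13.3738. Map1b probe set 1 was lowest among WT arrays in replicate 9, at 13.2249 with the nearest at 13.3864. Dcx probe set 1 was lowest in the same WT array, at 12.098 with the nearest at 12.275. That array is 1 of the 3 whose Xist signal went against the sex label.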

How the results depend on the processing

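Over 33 alternatives, 0 of 777 values computed for the 24 probe sets were called, and the smallest adjusted p was 0.0637 (Tubb2a probe set 2 without Hdac4KO replicate 1, limma). The sign of the fold change turned in 87 values on 11 probe sets, all with a fold change of 0.013 or less in size in the main fit. The turned values could be larger, up to 0.17 at Map1b probe set 2. With the replicate number as a block, 0 members were called and the wider microtubule genes called higher went from 6 to 2. The labels do not say whether a shared number pairs the arrays. With genotype means removed, 1 of 10 pairs of like number had a correlation above 0.1 (range −0.149 to 0.162), and 1 of 10 WT arrays correlated best with its own number. These values were not tested and cannot settle whether the numbers stand for a pairing. Of the wider genes, 6 were higher; this was 2 by the mean of a gene's probe sets, 0 with the 3′ minus 5′ covariate, 13 with dim probe sets left out, 0 without the 2 arrays nearest the other genotype, 0 without the 3 arrays against their sex label, and 0 (without WT replicate 2) to 10 (without Hdac4KO replicate 2) with 1 array left out. The 0 lower genes became 1 by the mean of probe sets, with dim probe sets left out and with the methods' t-test, and 0 to 1 with 1 array left out (1 without WT replicate 10 or Hdac4KO replicate 2). The count of 1 pair of probe sets apart was 0 without the 3 arrays and 0 (without WT replicate 1) to 2 with 1 array left out. Stmn2 passed in 20 of 22 alternatives (adjusted p up to 0.118, permutation test), Tubb2a in 5. Calls over all probe sets in the same settings are not given here, so these changes in count cannot be read as particular to the microtubule genes. The causes were not tested. Leaving out arrays for the wider genes and the pairs was chosen after seeing the data.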
